A study of Mus musculus with 13 samples.

Results

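The genes described here are 30 enzymes and regulators of cholesterol and fatty acid synthesis, named as a list by symbol, and all 30 were measured among the 19938 genes of the arrays. By role they comprise 7 enzymes leading from acetyl-CoA products through mevalonate to squalene, 9 enzymes leading from squalene to cholesterol, 5 genes of the sterol-sensing control system, 8 enzymes of fatty acid synthesis and desaturation, and Stard4, a sterol carrier protein. The study measured RNA of mouse rectum on 13 Affymetrix Mouse Gene 1.0 ST arrays: 5 of adenocarcinoma, 4 of inflamed mucosa and 4 of normal mucosa. Adenocarcinomas 1, 2, 3, 4 and 6 came from α6fl/fl Villin-Cre mice aged 53, 60, 60, 64 and 80 weeks, in which the villin promoter drives Cre in the intestinal epithelium and removes the floxed α6 integrin gene there. Inflamed mucosa 1 to 4 was non-tumoral mucosa next to the tumours, from mutant mice of 53, 60, 60 and 64 weeks, and normal mucosa 1, 2, 4 and 6 came from control mice of 53, 60, 64 and 70 weeks. In every group, numbers 1 and 6 are females and the others males. One label field gives all 13 samples the α6fl/fl Villin-Cre genotype, while another field and the protocol call the normal samples controls, so the controls' own genotype is not given beyond that word. Tumour and inflamed tissue was dissected from frozen sections of rectal prolapses and normal mucosa was scraped, so disease state and the way of collection cannot be told apart in comparisons with normal mucosa. The labels do not say that the arrays of a group came from separate mice, and p-values measure the spread between these samples.

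Cholesterol is built from acetyl-CoA: mevalonate pathway enzymes make isoprenoid units, these are joined to squalene, and squalene is closed to lanosterol and trimmed to cholesterol. Fatty acid synthesis starts from the same precursor, with Acaca (acetyl-CoA carboxylase) and Fasn (fatty acid synthase) making saturated chains and Scd enzymes adding a double bond, on reducing power from enzymes such as Me1. When sterols are low in the endoplasmic reticulum membrane, Scap escorts the SREBP transcription factors to the Golgi, where they are cut and released to switch on most of these genes, and Insig proteins hold the complex back when sterols are plentiful. In the intestine, epithelial cells both make cholesterol and take it up, and dividing cells need sterols and fatty acids for new membranes.

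Values are log2 expression values, so a difference of 1 is a 2-fold difference, and values of different genes are not compared since each gene has its own probes. The array medians lay between 6.41 and 6.59, and pairs of arrays correlated at 0.9255 to 0.9922 over genes. The highest reading of a transcript absent by sex was 5.57, which serves as a guide to the level of an undetected gene. Itga6, the gene targeted by the deletion, read 10.75 to 11.16 in normal mucosa, 10.90 to 11.20 in inflamed mucosa and 11.44 to 11.62 in adenocarcinoma. Its probe cluster reads the transcript as a whole, in all cells of the tissue, and no label says which exons are removed, so these levels do not check the genotype. Epithelial identity was plain in every group: the mean of 10 pan-epithelial genes was 12.04 to 12.21 in normal mucosa, 11.74 to 11.92 in inflamed mucosa and 11.95 to 12.01 in adenocarcinoma. Normal mucosa 1 stood apart. The mean of 12 squamous epithelial genes was 9.94 there and 6.04 to 6.33 in the other normal samples, and Krt5, a keratin of stratified epithelium, read 12.10 against 6.07 to 6.52. The tumours also held squamous signal, with a list mean of 6.74 to 8.32, highest in adenocarcinomas 2 and 3, and inflamed mucosa read 6.01 to 6.37. Krt14, Krt13 and the desmosomal gene Dsg3 were higher in all 5 tumours (8.47 to 10.63, 7.85 to 10.32 and 7.27 to 8.63) than in normal mucosa 2, 4 and 6 (6.85 to 7.34, 6.31 to 6.82 and 5.06 to 5.37). So was Sprr1a (10.94 to 11.67 against 7.49 to 8.11), which read 8.29 to 11.07 in inflamed mucosa. Krt10 was lower in all tumours (6.20 to 6.47 against 6.49 to 6.77), and the rest of the list overlapped. Against all 4 normal samples, 1 of the 12 genes rose in adenocarcinoma, 1 fell and 10 did not pass. Krt5 was high in adenocarcinomas 2 and 3 (11.17 and 10.70) and 5.98 to 7.38 in the others. Calls that changed when normal mucosa 1 was left out are given below both ways.

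**Figure D1:**
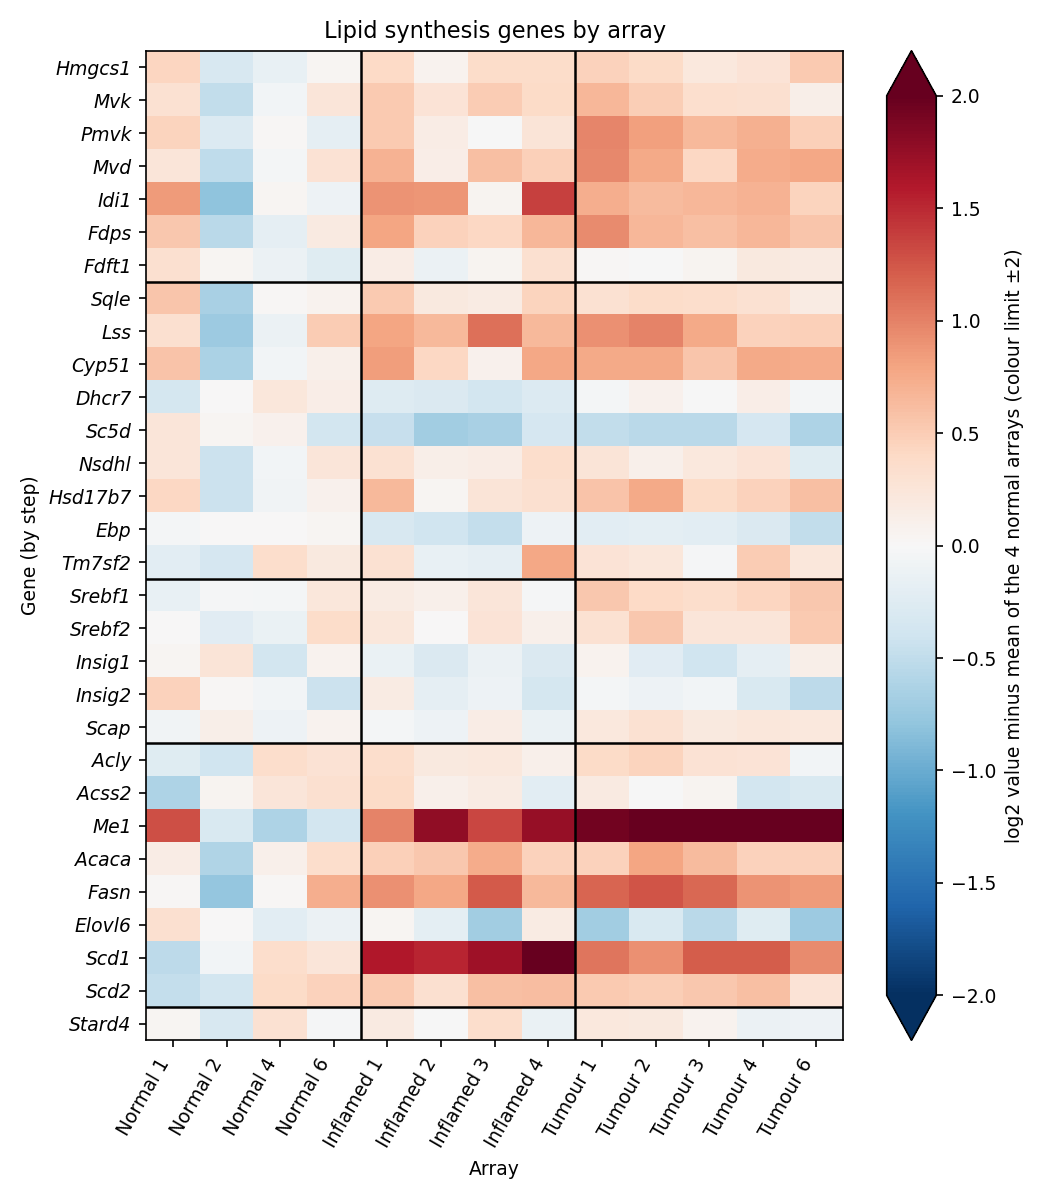
Heat map of the 30 synthesis genes (rows, grouped by role) over the 13 arrays (columns, grouped by tissue); colour is the log2 value minus the gene's mean over the 4 normal samples, with colours limited at ±2. Me1, Fasn and Scd1 are the most strongly raised rows (red) in diseased tissue, Sc5d and Ebp are lowered (blue), and among the normal samples number 2 is the lowest in 12 of the 16 sterol genes.

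Start-site sequences are shown first for 6 genes. One is Hmgcs1, the only gene with the sterol response element-like box. The others are the matched genes called in both comparisons with normal mucosa whose window holds a box marked below. Acaca was also called in both, but its window holds none of these boxes and is not printed. That the printed genes carry a box was thus set by their selection. RefSeq windows of 250 bases before the start (assembly GRCm38.p6) matched 24 of the 30 genes, in 33 windows, and Fdps, Fdft1, Sqle, Scd1, Scd2 and Stard4 were not matched. The stretch of each window that holds the boxes is printed 5′ to 3′ on the gene's strand, with capitals marking the boxes TCACNCCAC (sterol response element-like), CACGTG (E box) and CCAAT (NF-Y box, written ATTGG where it lies on the other strand).
Hmgcs1, chr13:119690101-119690330, plus strand: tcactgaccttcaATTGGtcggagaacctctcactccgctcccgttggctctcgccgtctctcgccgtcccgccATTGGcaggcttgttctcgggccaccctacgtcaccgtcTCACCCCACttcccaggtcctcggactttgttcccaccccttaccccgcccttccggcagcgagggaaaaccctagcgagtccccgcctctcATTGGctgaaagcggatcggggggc
Lss, chr10:76531523-76531567, plus strand: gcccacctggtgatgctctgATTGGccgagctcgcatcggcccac
Sc5d, chr9:42264301-42264418, minus strand: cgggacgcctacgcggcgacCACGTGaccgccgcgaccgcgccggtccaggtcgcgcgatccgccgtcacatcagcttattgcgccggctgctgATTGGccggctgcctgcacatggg
Ebp, chrX:8193543-8193702, minus strand: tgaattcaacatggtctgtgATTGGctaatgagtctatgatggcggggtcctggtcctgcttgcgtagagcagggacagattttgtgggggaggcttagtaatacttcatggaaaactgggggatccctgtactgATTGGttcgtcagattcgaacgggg
Me1, chr9:86687461-86687505, minus strand: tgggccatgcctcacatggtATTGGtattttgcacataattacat
Fasn, chr11:120824582-120824657, minus strand: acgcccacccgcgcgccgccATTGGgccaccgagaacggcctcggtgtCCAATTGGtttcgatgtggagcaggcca
The CCAAT box, searched on both strands, was present in 20 of 24 matched genes (83.3%), against 37.49% of all 27025 genes of the table and 38.8% of the 15614 genes measured on the arrays. GGGCGG, the Sp1 box, was also present in 20 of 24, against 35.36% of all genes and 49.31% of measured genes. CACGTG stood in 5 of 24 (Dhcr7, Sc5d, Hsd17b7, Insig1 and Scap; 20.8%), against 6.86% of all genes. The sterol response element-like TCACNCCAC was found in Hmgcs1 alone, where it starts 137 bases before the start, and in 1.22% of all genes. CCAAT was held by 10 of 12 matched genes that were higher in adenocarcinoma than in normal mucosa, by 2 of 3 that were lower and by 8 of 9 that were not called. These matches describe letters in a window and not binding.

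Across the list, diseased mucosa read higher than normal mucosa, and few genes were called between adenocarcinoma and inflamed mucosa. In adenocarcinoma against normal mucosa, 15 of 30 genes rose, 3 fell and 12 did not pass the test, in a comparison in which 35.8% of all genes were called (16.4% higher and 19.4% lower). In inflamed against normal mucosa, 6 rose, 2 fell and 22 did not pass, where 26.7% of all genes were called (13.7% higher and 13% lower), so the share called either way was that of all genes. In adenocarcinoma against inflamed mucosa, 1 rose, 1 fell and 28 did not pass, where 7.12% of all genes were called (2.91% higher and 4.21% lower). The calls are from limma at a Benjamini-Hochberg adjusted p below 0.05 over all 19938 genes, and every adjusted p below is from that fit. The median difference of the 30 genes was 0.37 for adenocarcinoma against normal mucosa and 0.23 for inflamed against normal mucosa, beside -0.10 and -0.095 over all genes. It was 0.04 for adenocarcinoma against inflamed mucosa, beside -0.005. In bulk tissue, fewer cells of a type and less RNA per cell cannot be told apart.

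Every array of adenocarcinoma lay above every normal array in 9 of the 30 genes (Pmvk, Mvd, Fdps, Srebf1, Scap, Me1, Acaca, Fasn and Scd1), against 13% of all genes, and below in Ebp and Elovl6, against 13.9%. For inflamed mucosa 3 genes lay wholly above normal mucosa (Lss, Acaca and Scd1), against 12% of all genes, and Ebp lay wholly below, against 15.5%. The mean of the 30 genes was 9.98, 10.01, 9.88, 9.93 and 9.81 in adenocarcinomas 1, 2, 3, 4 and 6, and 9.94, 9.75, 9.81 and 9.91 in inflamed mucosa 1 to 4. It was 9.71, 9.25, 9.54 and 9.65 in normal mucosa 1, 2, 4 and 6. Both diseased groups lay above all 4 normal samples and overlapped each other, and normal mucosa 2 was the lowest of all.

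**Figure D2:**
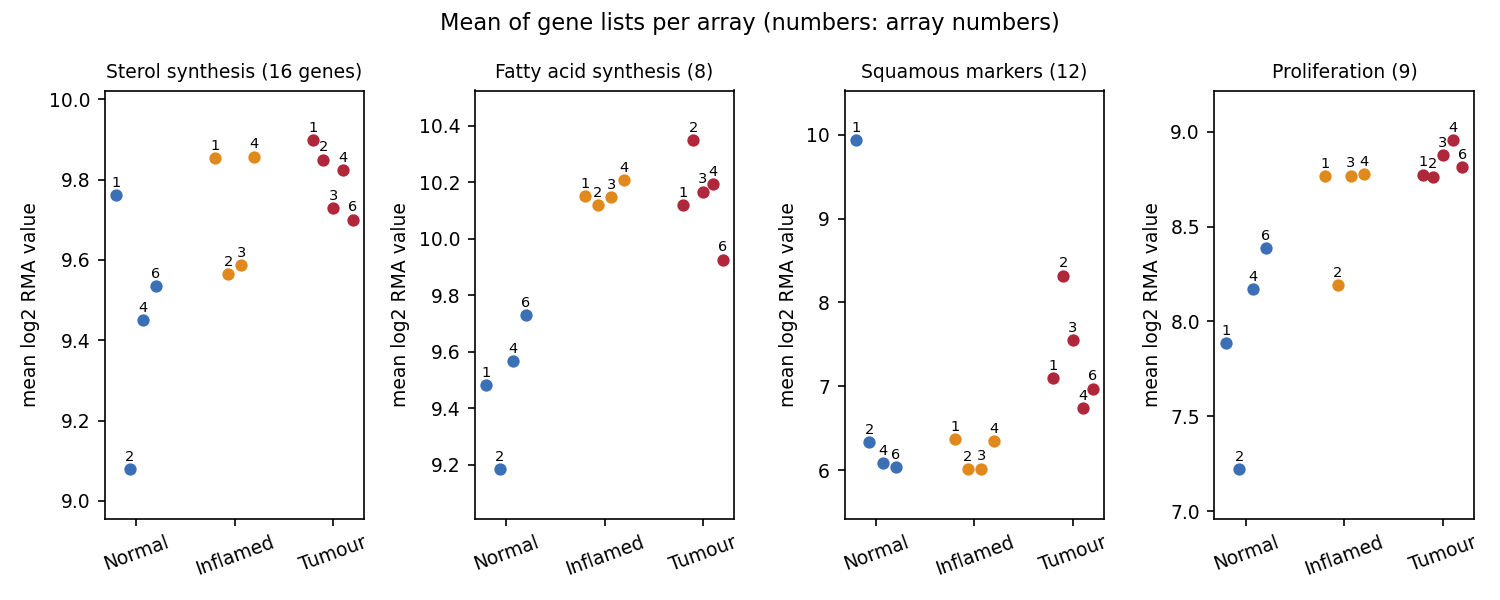
Mean log2 value per array (points) of the 16 sterol synthesis genes, the 8 fatty acid synthesis genes, 12 squamous markers and 9 proliferation genes, by tissue, with the array number beside each point. The fatty acid mean separates normal from diseased samples, with normal samples between 9.18 and 9.73 and the others at 9.93 or above, whereas normal mucosa 1 reaches 9.76 in the sterol mean, inside the range of the diseased samples.

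Fatty acid synthesis held the genes with the largest single differences from normal mucosa, Me1, Scd1 and Fasn. Of its 8 genes, 4 rose in inflamed mucosa (Me1, Acaca, Fasn and Scd1) and none fell, with a median difference of 0.53. The same 4 and Scd2 rose in adenocarcinoma while Elovl6 fell, with a median of 0.53. The shares called were 50% in inflamed mucosa and 75% in adenocarcinoma, against 26.7% and 35.8% of all genes. The mean of the 8 genes was 9.48, 9.18, 9.57 and 9.73 in normal mucosa, 10.15, 10.12, 10.15 and 10.21 in inflamed mucosa, and 10.12, 10.35, 10.17, 10.19 and 9.93 in adenocarcinoma. No diseased sample overlapped the normal range.

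Me1, cytosolic malic enzyme, which yields NADPH for lipid synthesis, differed most of the 30 genes between adenocarcinoma and normal mucosa. It read 7.40, 5.82, 5.50 and 5.76 in normal mucosa 1, 2, 4 and 6, then 7.12, 7.90, 7.46 and 7.86 in inflamed mucosa, and 8.05, 9.42, 8.21, 8.89 and 8.17 in adenocarcinoma. Normal mucosa 2, 4 and 6 sat at about the level of an undetected gene, normal mucosa 1 reached into the inflamed range, and all 5 tumours were above every other sample. Me1 rose by 2.43 ± 0.37 (SE) in adenocarcinoma against normal mucosa, a 5.38-fold difference (adjusted p = 0.000224), and by 1.46 ± 0.39 in inflamed mucosa, a 2.76-fold difference (adjusted p = 0.0145). Without normal mucosa 1 the rises were 2.86 (adjusted p = 9.48e-06) and 1.89 (adjusted p = 0.000551). Because 3 normal samples lie near the floor of the arrays, these folds depend on where that floor lies. Adenocarcinoma exceeded inflamed mucosa by 0.97 ± 0.37 (95% interval 0.17 to 1.76), which did not pass (adjusted p = 0.151; 0.0371 without normal mucosa 1). Leaving out a normal sample does not move this difference. It changes only the spread that all groups share in the fit and the adjustment over genes. The SD of Me1 was 0.87 in normal mucosa, 0.37 in inflamed mucosa and 0.59 in adenocarcinoma. A second probe cluster of Me1 gave 2.42, 1.48 and 0.93 for the same comparisons.

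Scd1, the stearoyl-CoA desaturase that makes oleate, was highest next to the tumours and not in them. It read 8.28, 8.75, 9.16 and 9.05 in normal mucosa, 10.42, 10.33, 10.50 and 11.01 in inflamed mucosa, and 9.88, 9.72, 10.01, 10.02 and 9.75 in adenocarcinoma. The groups did not overlap: all normal samples were lowest, all tumours intermediate and all inflamed samples highest. Scd1 rose by 1.76 ± 0.18 (3.38-fold, adjusted p = 1.72e-05) in inflamed mucosa and by 1.07 ± 0.17 (2.10-fold, adjusted p = 0.000394) in adenocarcinoma, and it fell by 0.69 ± 0.17 (1.61-fold, adjusted p = 0.029) from inflamed mucosa to adenocarcinoma. Only this last call moved with single samples: it was lost without adenocarcinoma 1, 2 or 6 or inflamed mucosa 3 or 4 (adjusted p 0.0563, 0.0735, 0.0701, 0.0591 and 0.0971), and the smallest difference was -0.54, without inflamed mucosa 4. Scd1 and its relatives are abundant in fat and sebaceous glands. Adipocyte genes averaged 6.33 to 6.60 in normal mucosa, 6.92 to 7.11 in inflamed mucosa and 6.60 to 6.68 in adenocarcinoma over 11 genes, of which 3 rose in inflamed mucosa and 8 did not pass. Fabp4, a fatty acid binding protein, rose from 5.51 to 6.51 in normal mucosa to 7.98 to 8.51 in inflamed mucosa, and Cd36, a fatty acid transporter, from 4.35 to 5.65 to 7.23 to 8.89. Plin4, a lipid droplet protein, rose from 6.45 to 7.02 to 7.08 to 8.13. All 3 were lower again in adenocarcinoma than in inflamed mucosa, as Scd1 was, with differences of -0.93, -2.20 and -1.11 (adjusted p = 0.0101, 0.00145 and 0.00292). Of the other listed adipocyte genes, Adipoq and Lep read 4.18 to 4.74 and 4.45 to 5.32 on the 13 arrays, under the level of an undetected gene. Plin1, Cidec, Lipe, Retn and Pparg read above that level (6.30 to 7.14, 6.89 to 8.19, 7.34 to 7.91, 5.90 to 6.40 and 10.24 to 10.67). None of these passed in any comparison. Lpl rose in adenocarcinoma against normal mucosa (0.89, adjusted p = 0.00109). The part of fat cells in the Scd1 difference was not tested. The 10 sebaceous genes averaged 5.15 to 5.69.

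Fasn, which builds palmitate, read 9.75, 8.95, 9.75 and 10.44 in normal mucosa, 10.63, 10.50, 10.95 and 10.38 in inflamed mucosa, and 10.89, 10.98, 10.87, 10.63 and 10.58 in adenocarcinoma. All tumours exceeded all normal samples, while inflamed mucosa 4 lay just under normal mucosa 6. Fasn rose by 1.06 ± 0.22 (2.09-fold, adjusted p = 0.00245) in adenocarcinoma and by 0.89 ± 0.24 (1.85-fold, adjusted p = 0.0143) in inflamed mucosa. Its promoter, shown above, holds overlapping CCAAT boxes near the end of the printed stretch.

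Acaca, whose product malonyl-CoA commits carbon to fatty acids, read 8.79, 8.05, 8.74 and 8.99 in normal mucosa, 9.11, 9.18, 9.38 and 9.11 in inflamed mucosa, and 9.11, 9.44, 9.28, 9.11 and 9.10 in adenocarcinoma. Every diseased sample was above every normal one. It rose by 0.57 ± 0.16 (1.48-fold, adjusted p = 0.0133) in adenocarcinoma and by 0.55 ± 0.17 (1.47-fold, adjusted p = 0.025) in inflamed mucosa, the latter lost without inflamed mucosa 2 or 3 (adjusted p = 0.0549 and 0.0628).

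The other fatty acid genes differed less. Scd2, a desaturase isoform, read 11.33, 11.43, 12.19 and 12.27 in normal mucosa and 12.07 to 12.41 in the tumours. Normal mucosa 1 and 2 were low and normal mucosa 4 and 6 lay within the tumours' range. It rose by 0.49 ± 0.18 (1.40-fold, adjusted p = 0.0464) in adenocarcinoma, and was one of the least stable calls, lost without normal mucosa 1 (0.33, adjusted p = 0.14) or 2 (0.36, adjusted p = 0.155), and without adenocarcinoma 1, 2, 3 or 4 or any 1 inflamed sample (adjusted p 0.0523 to 0.0911). Elovl6, which lengthens palmitate, went the other way: 10.15, 9.83, 9.61 and 9.71 in normal mucosa and 9.13, 9.52, 9.29, 9.59 and 9.10 in adenocarcinoma, with no overlap. It fell by 0.50 ± 0.17 (1.41-fold, adjusted p = 0.0368), which was not kept without normal mucosa 1 (-0.39, adjusted p = 0.104) or 2 (-0.50, adjusted p = 0.0769) or adenocarcinoma 1, 3 or 6 (-0.44 to -0.49, adjusted p 0.0658 to 0.0751). In inflamed mucosa it read 9.87, 9.63, 9.12 and 9.99 (adjusted p = 0.471 against normal mucosa). Acly and Acss2, which supply cytosolic acetyl-CoA from citrate and from acetate, did not pass in any comparison: Acly differed by 0.26 and Acss2 by -0.09 between adenocarcinoma and normal mucosa.

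**Figure D3:**
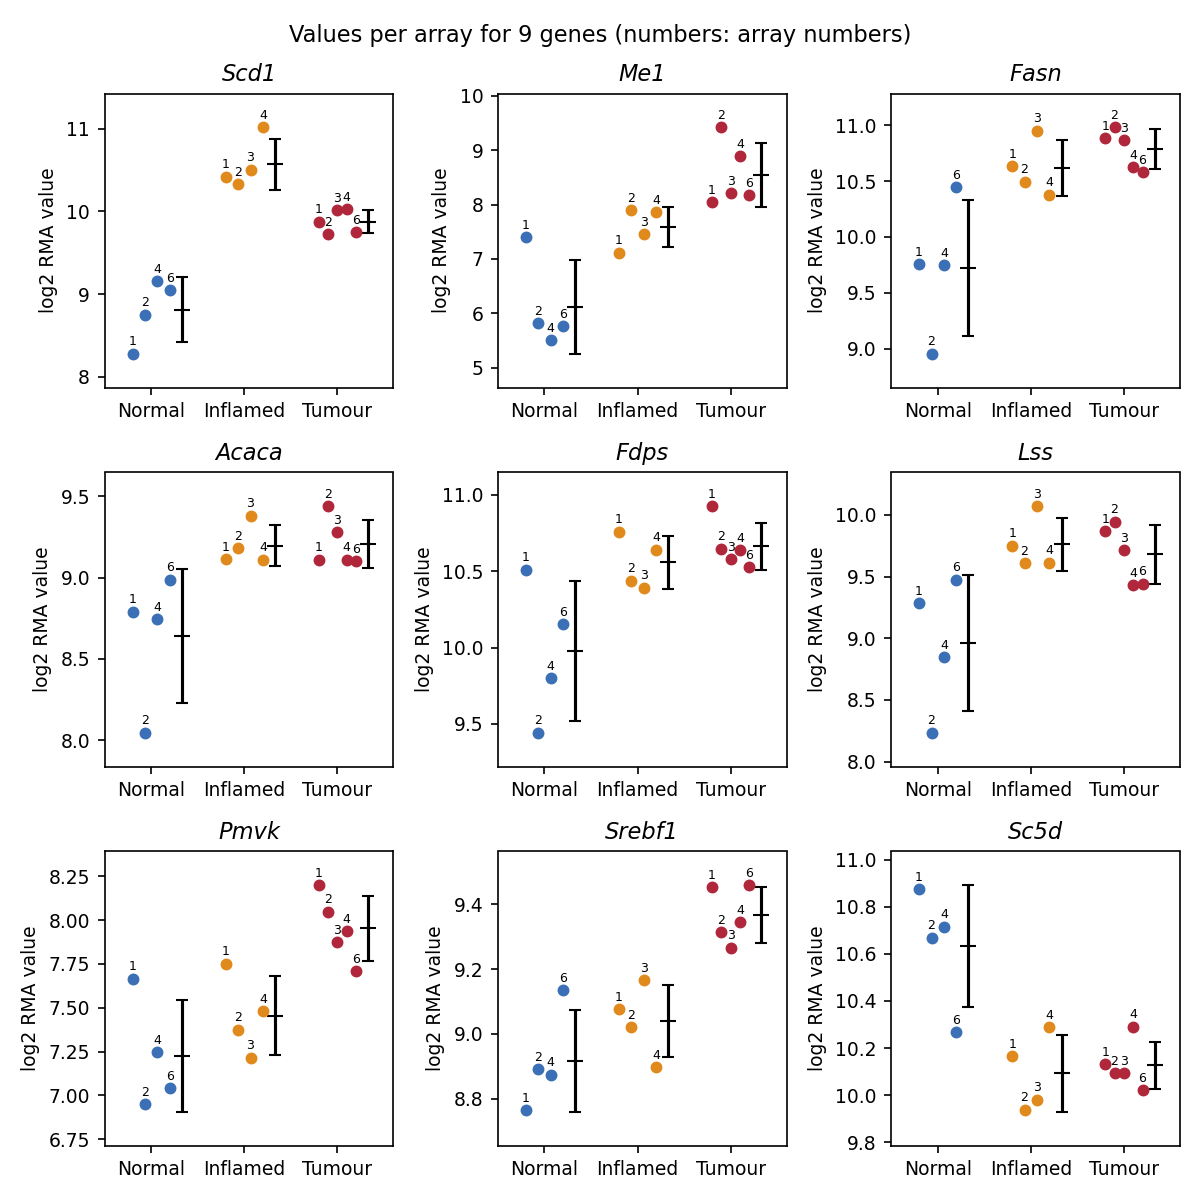
Log2 value in each array (numbered points) with the group mean ± SD (bar) for 9 of the genes, 1 panel per gene with its own axis, by tissue. Scd1 is highest in inflamed mucosa, Me1, Srebf1 and Pmvk are highest in adenocarcinoma, and Sc5d is lower in both diseased groups than in 3 of the 4 normal samples.

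In the mevalonate to squalene segment, 4 of 7 genes rose in adenocarcinoma (Hmgcs1, Pmvk, Mvd and Fdps), none fell, and the median difference was 0.63. The share called in adenocarcinoma was 57.1%, against 35.8% of all genes. In inflamed mucosa 1 of 7 rose (Fdps, 14.3%, near the 13.7% of all genes that rose), with a median of 0.43. There 4 of 7 were higher at an unadjusted p below 0.05 in limma, where 3602 of all 19938 genes were. No gene of the segment was called between adenocarcinoma and inflamed mucosa, where 1 of 7 was higher at an unadjusted p below 0.05 in limma. Of all 19938 genes, 1650 were higher and 2232 lower at that level.

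Pmvk, phosphomevalonate kinase, was raised in the tumours more than beside them. It read 7.67, 6.95, 7.25 and 7.04 in normal mucosa, 7.75, 7.37, 7.21 and 7.48 in inflamed mucosa, and 8.20, 8.05, 7.88, 7.94 and 7.71 in adenocarcinoma. The tumours lay above all normal samples, and only inflamed mucosa 1 reached their range. Pmvk rose by 0.73 ± 0.15 in adenocarcinoma (1.66-fold, adjusted p = 0.00223), while inflamed mucosa differed from normal mucosa by 0.23 ± 0.16 (adjusted p = 0.279). The difference between adenocarcinoma and inflamed mucosa was 0.50 ± 0.15 (95% interval 0.17 to 0.82, adjusted p = 0.065). It had an adjusted p of 0.0365 without inflamed mucosa 1, of 0.0254 without normal mucosa 1 and of 0.0352 from the groups compared alone. With the replicate number as a block it was 0.55 (adjusted p = 0.0113). Among all other fits it passed in 7 and not in 18.

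Mvd, the decarboxylase that makes isopentenyl pyrophosphate, read 8.60, 7.84, 8.32 and 8.65 in normal mucosa, 9.05, 8.49, 8.95 and 8.83 in inflamed mucosa, and 9.32, 9.11, 8.77, 9.10 and 9.13 in adenocarcinoma. All tumours were above all normal samples, with inflamed mucosa between and overlapping both. It rose by 0.73 ± 0.17 in adenocarcinoma (1.66-fold, adjusted p = 0.00423) and differed by 0.48 ± 0.18 in inflamed mucosa (adjusted p = 0.059; 0.56 and 0.0458 without normal mucosa 1, and 0.55 and 0.0223 with the replicate block).

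Fdps, farnesyl pyrophosphate synthase, was called in both diseased tissues. It read 10.51, 9.44, 9.80 and 10.15 in normal mucosa, 10.76, 10.44, 10.39 and 10.64 in inflamed mucosa, and 10.92, 10.65, 10.58, 10.64 and 10.52 in adenocarcinoma. Normal mucosa 1 was the single normal sample within the inflamed range. Fdps rose by 0.69 ± 0.17 in adenocarcinoma (1.61-fold, adjusted p = 0.00792) and by 0.58 ± 0.18 in inflamed mucosa (1.50-fold, adjusted p = 0.0321). The inflamed call was lost without inflamed mucosa 1, 2 or 4 or normal mucosa 2 or 4, at 0.40 to 0.62 (adjusted p 0.0521 to 0.0926), the lowest being without normal mucosa 2.

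Hmgcs1, HMG-CoA synthase, which carries the sterol response element-like box shown above, read 11.11, 10.36, 10.54 and 10.71 in normal mucosa, 11.08, 10.75, 11.04 and 11.04 in inflamed mucosa, and 11.13, 11.06, 10.88, 10.95 and 11.21 in adenocarcinoma. Normal mucosa 1 was as high as the diseased samples and the other normal samples were below all of them. The rise in adenocarcinoma of 0.37 ± 0.13 (1.29-fold, adjusted p = 0.0477) just passed and was lost under 14 of 23 other ways of running the test, among them leaving out normal mucosa 2 (0.26, adjusted p = 0.159), normal mucosa 4 or 6, adenocarcinoma 1, 2, 4 or 6, or inflamed mucosa 1, 3 or 4 (0.32 to 0.39, adjusted p 0.0566 to 0.109). In inflamed mucosa the difference was 0.30 ± 0.14 (adjusted p = 0.127), and 0.44 (adjusted p = 0.0173) without normal mucosa 1.

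Idi1, Mvk and Fdft1 did not pass in any comparison. Idi1, which isomerises isopentenyl pyrophosphate, read 10.57, 8.91, 9.75 and 9.61 in normal mucosa, 9.76 to 11.08 in inflamed mucosa and 10.16 to 10.43 in adenocarcinoma. The normal samples spread widely, with number 1 inside and number 2 far below the diseased range. Its differences were 0.80 ± 0.30 in inflamed mucosa (adjusted p = 0.0613) and 0.63 ± 0.28 in adenocarcinoma (adjusted p = 0.0934), and 1.08 (adjusted p = 0.00865) and 0.92 (adjusted p = 0.0121) without normal mucosa 1. Mvk, mevalonate kinase, differed by 0.43 ± 0.16 and 0.38 ± 0.15 (adjusted p = 0.065 and 0.0653), and by 0.53 and 0.48 (adjusted p = 0.0352 and 0.0317) without normal mucosa 1. Fdft1, squalene synthase, differed by 0.10 and 0.09.

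From squalene to cholesterol the genes split. In adenocarcinoma 3 of 9 rose (Lss, Cyp51 and Hsd17b7) and 2 fell (Sc5d and Ebp). In inflamed mucosa 1 rose (Lss) and the same 2 fell. The medians were 0.24 and 0.23. The shares called were 55.6% and 33.3%, against 35.8% and 26.7% of all genes. None was called between adenocarcinoma and inflamed mucosa, where 1 of 9 was higher at an unadjusted p below 0.05 in limma. Of all 19938 genes, 1650 were higher and 2232 lower at that level.

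Lss, lanosterol synthase, which closes the sterol rings, read 9.28, 8.23, 8.85 and 9.48 in normal mucosa, 9.75, 9.61, 10.07 and 9.61 in inflamed mucosa, and 9.87, 9.94, 9.71, 9.43 and 9.44 in adenocarcinoma. Inflamed samples were all above the normal ones, and adenocarcinomas 4 and 6 lay just below normal mucosa 6. Lss rose by 0.80 ± 0.22 in inflamed mucosa (1.74-fold, adjusted p = 0.019) and by 0.72 ± 0.21 in adenocarcinoma (1.65-fold, adjusted p = 0.0186). Without inflamed mucosa 3 the former was 0.70 (adjusted p = 0.0516), and without normal mucosa 2 the latter was 0.48 (adjusted p = 0.0537).

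Cyp51, lanosterol demethylase, read 9.52, 8.31, 8.89 and 9.05 in normal mucosa, 9.78, 9.36, 9.04 and 9.71 in inflamed mucosa, and 9.70, 9.71, 9.49, 9.70 and 9.68 in adenocarcinoma. The tumours were tightly grouped and reached down to normal mucosa 1 only. It rose by 0.72 ± 0.20 in adenocarcinoma (1.64-fold, adjusted p = 0.0143), and in inflamed mucosa differed by 0.53 ± 0.21 (adjusted p = 0.0784; 0.72 and 0.0159 without normal mucosa 1, and 0.63 and 0.0305 with the replicate block). Hsd17b7, a reductase of sterol trimming, read 9.43, 8.59, 8.94 and 9.09 in normal mucosa and 9.59, 9.77, 9.39, 9.47 and 9.62 in adenocarcinoma. Normal mucosa 1 was within the tumours' range and the other normal samples were below it. It rose by 0.56 ± 0.16 (1.47-fold, adjusted p = 0.0147), and by 0.41 (adjusted p = 0.0523) without normal mucosa 2. In inflamed mucosa it differed by 0.32 (adjusted p = 0.16), and by 0.46 (adjusted p = 0.0474) without normal mucosa 1.

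Sc5d, sterol desaturase, and Ebp, the sterol isomerase that precedes it, fell in both diseased tissues. Sc5d read 10.88, 10.67, 10.72 and 10.27 in normal mucosa, 10.17, 9.94, 9.98 and 10.29 in inflamed mucosa, and 10.13, 10.09, 10.09, 10.29 and 10.02 in adenocarcinoma. Normal mucosa 1, 2 and 4 were above every diseased sample and normal mucosa 6 lay at the top of the diseased range. It fell by 0.54 ± 0.12 in inflamed mucosa (1.45-fold, adjusted p = 0.00669) and by 0.51 ± 0.12 in adenocarcinoma (1.42-fold, adjusted p = 0.00488). Ebp read 9.64, 9.69, 9.69 and 9.71 in normal mucosa, 9.36, 9.29, 9.20 and 9.58 in inflamed mucosa, and 9.46, 9.48, 9.47, 9.39 and 9.18 in adenocarcinoma. The normal samples were nearly equal and all diseased samples lay below them. It fell by 0.32 ± 0.09 (1.25-fold, adjusted p = 0.0239) and by 0.28 ± 0.09 (1.22-fold, adjusted p = 0.0257). The inflamed call was lost without inflamed mucosa 2 or 3 (adjusted p = 0.0693 and 0.0629), and the tumour call without normal mucosa 2 or adenocarcinoma 6 (adjusted p = 0.0518 and 0.0558).

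Dhcr7, the reductase of the last step, was the only sterol enzyme set apart between the diseased tissues by range. It read 9.79, 9.75, 9.67 and 9.77 in inflamed mucosa and 10.01, 10.14, 10.04, 10.18 and 10.0007 in adenocarcinoma, with 9.69, 10.05, 10.26 and 10.17 in normal mucosa. Every tumour was above every inflamed sample, as also for Srebf1, Scap and Me1 (4 of 30 genes, against 5.27% of all genes; Scd1 lay wholly below, against 6.51%), and normal mucosa 1 was in the inflamed range while the others were in or above the tumours' range. The difference of adenocarcinoma from inflamed mucosa, 0.33 ± 0.10, did not pass (adjusted p = 0.0776) in the fit of all groups. It had an adjusted p of 0.0179 without normal mucosa 1 and of 0.0183 from the groups compared alone. Among all other fits it passed in 5 and not in 20. The SD of Dhcr7 was 0.25 in normal mucosa, 0.05 in inflamed mucosa and 0.08 in adenocarcinoma. That of inflamed from normal mucosa was -0.30 ± 0.11 (adjusted p = 0.0583), and -0.42 (adjusted p = 0.00416) without normal mucosa 1. Sqle, squalene epoxidase, read 10.63, 9.43, 10.08 and 10.14 in normal mucosa and 10.23 to 10.60 in the 9 diseased samples. Normal mucosa 1 exceeded all of these and the other normal samples were below all of them. The differences were 0.33 ± 0.19 and 0.30 ± 0.18 (adjusted p = 0.187 and 0.194), and 0.52 and 0.48 (adjusted p = 0.0315 and 0.0261) without normal mucosa 1. Nsdhl and Tm7sf2 differed by 0.12 and 0.24 between adenocarcinoma and normal mucosa and did not pass.

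Among the control genes, the transcription factors and their escort rose in adenocarcinoma (Srebf1, Srebf2 and Scap, 3 of 5). None was called in inflamed mucosa, where none had an unadjusted p below 0.05 in limma either. Of all 19938 genes, 3602 were higher and 4700 lower there at that level. The shares called were 60% and 0%, against 35.8% and 26.7% of all genes. Srebf1, whose SREBP-1 proteins drive fatty acid genes, read 8.76, 8.89, 8.87 and 9.14 in normal mucosa, 9.08, 9.02, 9.17 and 8.90 in inflamed mucosa, and 9.45, 9.31, 9.27, 9.35 and 9.46 in adenocarcinoma. Every tumour was above every other sample, and the other groups overlapped. It rose by 0.45 ± 0.09 against normal mucosa (1.37-fold, adjusted p = 0.00165) and by 0.33 ± 0.09 against inflamed mucosa (1.26-fold, adjusted p = 0.0419). The second call was lost under 12 of the 23 other ways of running the test among them leaving out adenocarcinoma 1, 2, 4 or 6, inflamed mucosa 1, 2 or 4 or normal mucosa 4 (0.28 to 0.34, adjusted p 0.0539 to 0.136), and was 0.29 (adjusted p = 0.105) with the replicate block.

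Srebf2, whose product drives cholesterol genes, read 10.10, 9.86, 9.95 and 10.45 in normal mucosa, 10.32, 10.10, 10.37 and 10.19 in inflamed mucosa, and 10.39, 10.64, 10.34, 10.33 and 10.62 in adenocarcinoma. Normal mucosa 6 lay within the tumours and the other normal samples below them. It rose by 0.37 ± 0.12 (1.29-fold, adjusted p = 0.0293), with 0.37 (adjusted p = 0.051) without normal mucosa 1 0.29 (adjusted p = 0.0979) without normal mucosa 2, and 0.32 to 0.33 (adjusted p 0.0618 to 0.0739) without normal mucosa 4 or adenocarcinoma 2 or 6. Scap read 9.66, 9.84, 9.62 and 9.79 in normal mucosa, 9.69, 9.63, 9.87 and 9.59 in inflamed mucosa, and 9.93, 10.03, 9.93, 9.96 and 9.94 in adenocarcinoma. The tumours were again above all other samples. Scap rose by 0.23 ± 0.08 (1.18-fold, adjusted p = 0.0351; lost at 0.20 to 0.24, adjusted p 0.0511 to 0.0887, without normal mucosa 1 or 4 or adenocarcinoma 2, 3, 4 or 6), and exceeded inflamed mucosa by 0.27 ± 0.08 (adjusted p = 0.061; 0.33 and 0.0331 without inflamed mucosa 3). Insig1 and Insig2, which retain the complex, did not pass in any comparison: between adenocarcinoma and normal mucosa Insig1 differed by -0.13 and Insig2 by -0.20. Stard4, which moves sterols between membranes, read 9.34 to 9.96 in normal mucosa and 9.53 to 10.01 in the diseased samples and differed by 0.05 to 0.10 from normal mucosa.

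**Figure D4:**
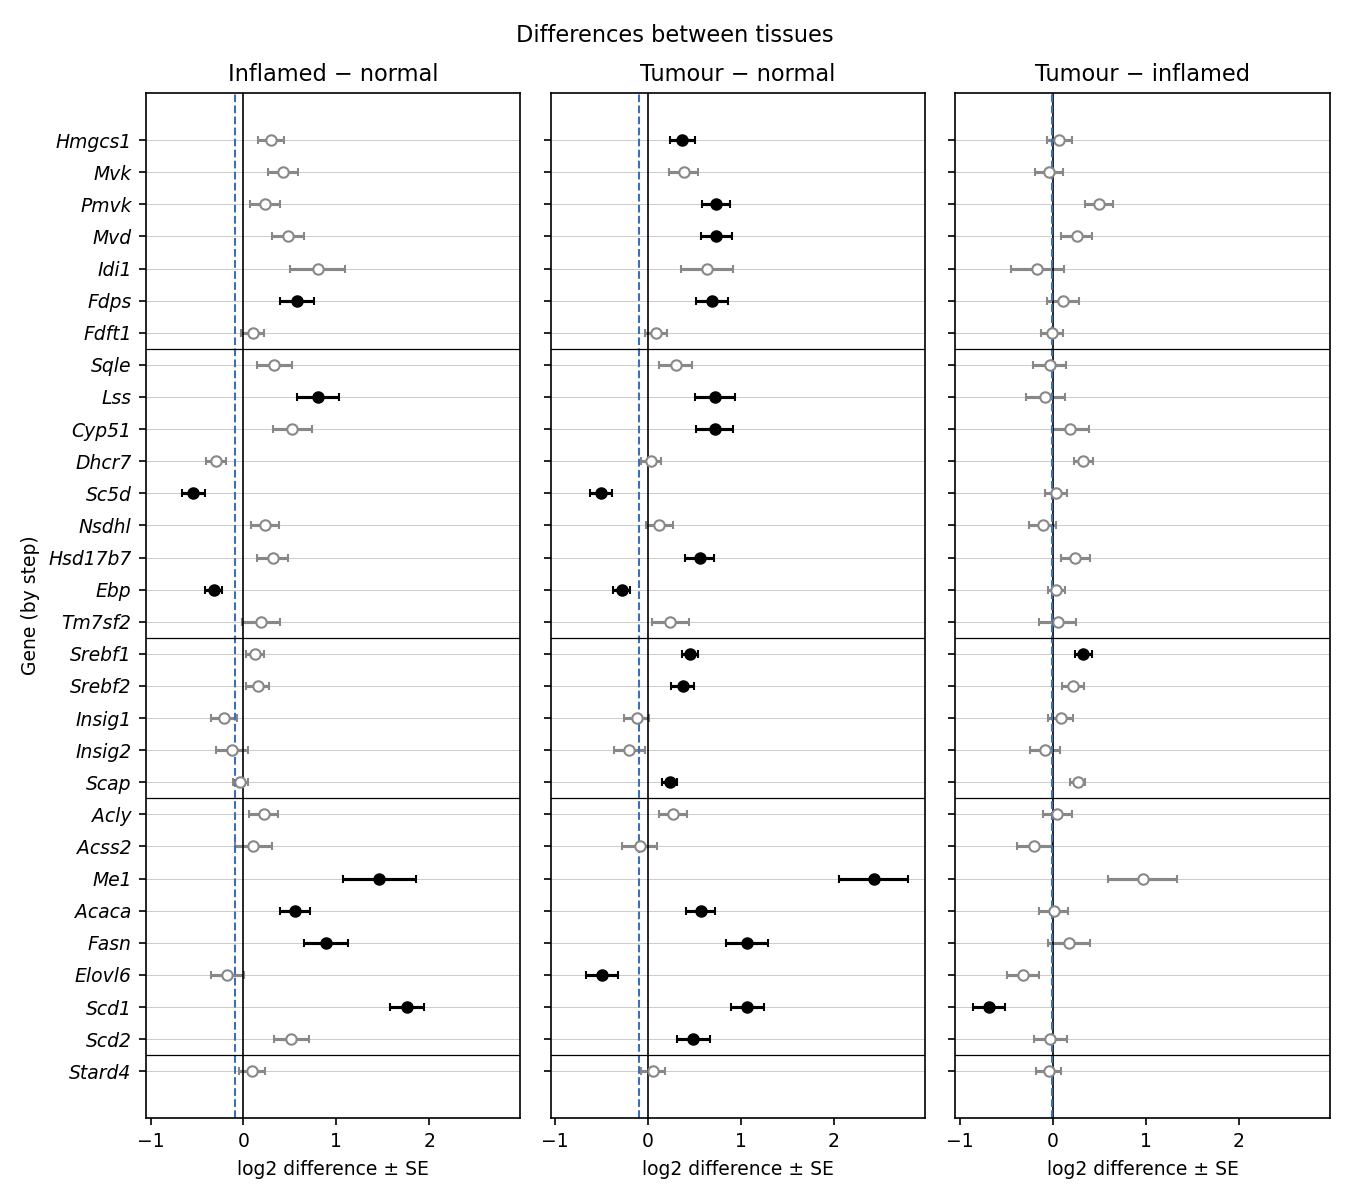
Log2 difference ± SE of each of the 30 genes in the comparisons of inflamed and adenocarcinoma samples with normal mucosa and of adenocarcinoma with inflamed mucosa, ordered by role; filled points passed the test and the dashed line is the median of all genes. In the comparison of adenocarcinoma with inflamed mucosa most points lie near 0, with Srebf1 above and Scd1 below it as the only genes that passed.

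The comparison of tumour with adjacent mucosa can be read within pairs, since samples of the same number share sex and age. Their deviations from their group means correlated at 0.198 to 0.387, against at most 0.185 between tumour and inflamed samples of different numbers. In 4 of 4 pairs, 6 of 30 genes were higher in the tumour (Pmvk, Dhcr7, Srebf1, Scap, Acly and Me1; 20%, against 13.6% of all genes), and Acss2 and Scd1 were lower (6.7%, against 16.8%). The pair differences were 0.93, 1.52, 0.75 and 1.04 for Me1 in pairs 1 to 4. They were 0.45, 0.67, 0.66 and 0.46 for Pmvk and -0.54, -0.61, -0.49 and -0.99 for Scd1. The labels do not say that samples of 1 number came from 1 mouse. With the number shared by tumour and inflamed samples as a random block, 5 genes were called higher in adenocarcinoma: Srebf1, Dhcr7 (0.33, adjusted p = 0.0262), Me1 (0.99, adjusted p = 0.0499), Pmvk (0.52, adjusted p = 0.0163) and Scap (0.27, adjusted p = 0.0244). Calls over all genes increased with that block too, to 938 higher and 1341 lower from 581 and 839. For Fdps, Lss, Acaca and Fasn, which were called in both diseased groups, the differences between adenocarcinoma and inflamed mucosa were 0.11 (95% interval -0.27 to 0.48), -0.08 (-0.54 to 0.38), 0.01 (-0.33 to 0.35) and 0.17 (-0.31 to 0.65). These intervals leave room for differences in either direction. The comparisons of both diseased groups with normal mucosa share the normal samples.

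The normal samples differed among themselves in these genes more than the diseased samples did. The median SD of the 30 genes was 0.358 in normal mucosa, 0.181 in inflamed mucosa and 0.154 in adenocarcinoma. Over the 8439 genes with means in the same range it was 0.205, 0.159 and 0.160. Normal mucosa 2 was the lowest normal sample in 17 of 30 genes and in 12 of the 16 sterol synthesis genes, against 16.9% of all genes. Normal mucosa 1 was the highest in 14 of 30 and in 11 of 16 sterol genes, against 21.9% of all genes. The sterol mean was 9.76, 9.08, 9.45 and 9.53 in normal mucosa 1, 2, 4 and 6. A list of 9 proliferation genes read 7.88, 7.22, 8.17 and 8.39 in the same samples, 8.19 to 8.78 in inflamed mucosa and 8.76 to 8.96 in adenocarcinoma, so normal mucosa 2 was the lowest in both. Without normal mucosa 1, which holds the squamous signal, 13 genes rose and 3 fell in inflamed mucosa, and 15 rose and 2 fell in adenocarcinoma. Without normal mucosa 2, 5 of the genes rose and 2 fell in inflamed mucosa, and 10 rose and 1 fell in adenocarcinoma. There 2203 of all genes rose and 1471 fell in inflamed mucosa, and 2801 rose and 2543 fell in adenocarcinoma. With normal mucosa 1 and 2 both left out, Fdps (0.58), Me1 (1.95) and Scd1 (1.46) were called higher and Dhcr7 (-0.47) lower in inflamed mucosa. Fasn (0.52, adjusted p = 0.119) and Sc5d (-0.40, adjusted p = 0.0854) were not called. That fit called 1816 of all genes higher and 952 lower in inflamed mucosa. Without normal mucosa 1 and adenocarcinomas 2 and 3, Hmgcs1, Pmvk, Mvd, Fdps, Cyp51, Hsd17b7, Srebf1, Me1, Fasn and Scd1 kept their calls in adenocarcinoma against normal mucosa. They also kept them without normal mucosa 1 and 2, where Fasn differed by 0.69 and Scd1 by 0.77. Of all genes, 2350 rose in adenocarcinoma in the former fit and 2373 in the latter.

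Other cell types differed between the groups as well, and their part in these differences was not tested. The mean of the mature colonocyte markers was 11.87 to 12.17 in normal mucosa, 10.83 to 11.09 in inflamed mucosa and 8.09 to 9.30 in adenocarcinoma. Smooth muscle genes averaged 6.50 to 7.96, 10.15 to 11.13 and 8.50 to 8.77 in the same order. Fibroblast genes averaged 6.85 to 7.94, 9.19 to 9.70 and 9.15 to 9.67, and macrophage genes 6.79 to 7.92, 8.70 to 9.10 and 8.12 to 8.92. Smooth muscle, macrophage, plasma cell, adipocyte and fibroblast means were all highest in inflamed mucosa, as Scd1 was, and lowest in normal mucosa. Group means in normal mucosa, inflamed mucosa and adenocarcinoma were 7.19, 8.98 and 8.41 for macrophages and 7.82, 9.47 and 8.83 for plasma cells. They were 6.28, 8.31 and 8.60 for endothelial genes and 6.49, 6.58 and 8.52 for neutrophil genes. Fibroblast genes were raised in both diseased tissues.

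Genes of neighbouring pathways, from lists outside the 30, differed in both directions. Of all genes, 16.4% rose and 19.4% fell in adenocarcinoma against normal mucosa, and 13.7% rose and 13% fell in inflamed mucosa. Of 14 measured genes of cholesterol uptake, export and breakdown, 8 fell and 2 rose in adenocarcinoma (median -0.28), and 6 fell and 2 rose in inflamed mucosa (median -0.31). The shares called were 71.4% and 57.1%, against 35.8% and 26.7% of all genes. Abcg5, a sterol exporter subunit of enterocytes, fell by 1.80 in inflamed mucosa (3.49-fold, adjusted p = 0.0067) and fell by 1.62 in adenocarcinoma (3.08-fold, adjusted p = 0.00642). Cyp27a1, a sterol hydroxylase, fell by 1.39 in adenocarcinoma (adjusted p = 0.000186), and Abcg1, a cholesterol exporter, fell by 0.86 (adjusted p = 0.00552). Scarb1, the lipoprotein receptor that takes up cholesterol esters, rose by 0.95 in inflamed mucosa (1.93-fold, adjusted p = 0.00196) and by 1.07 in adenocarcinoma (2.11-fold, adjusted p = 0.000324). Nr1h3, the oxysterol receptor LXRα, which switches on sterol export genes and Srebf1, fell by 0.49 in inflamed mucosa (adjusted p = 0.0132) and by 0.88 in adenocarcinoma (adjusted p = 9.87e-05). Mylip, an LXR target, fell by 0.88 (adjusted p = 0.0049) and Prkaa2, a catalytic subunit of the AMP-activated kinase that restrains lipid synthesis, fell by 0.46 (adjusted p = 0.00295), both in adenocarcinoma. These are 3 of the 7 measured other control genes (42.9% called in adenocarcinoma, against 35.8% of all genes). None of the 7 rose, where 16.4% of all genes did. In inflamed mucosa 14.3% of the 7 were called, against 26.7% of all genes.

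Of 17 other genes of fatty acid synthesis and activation, 7 rose and 2 fell in adenocarcinoma (median 0.10), and 4 rose and 1 fell in inflamed mucosa (median 0.06). The shares called were 52.9% and 29.4%, against 35.8% and 26.7% of all genes, so the inflamed share was near that of all genes. Fads1, a desaturase of polyunsaturated fatty acids, followed the order of Scd1: it rose by 2.38 in inflamed mucosa (5.22-fold, adjusted p = 1.65e-05) and by 1.53 in adenocarcinoma (2.88-fold, adjusted p = 0.000259). From inflamed mucosa to adenocarcinoma it fell by 0.86 (1.81-fold, adjusted p = 0.0427), a call lost without any 1 tumour, without inflamed mucosa 2, 3 or 4 or without normal mucosa 4 (adjusted p 0.0523 to 0.12). Acsl4, which activates arachidonate, rose by 1.23 (2.35-fold, adjusted p = 0.000177) and by 1.68 (3.21-fold, adjusted p = 4.77e-06). Idh1, a cytosolic NADPH source, rose by 0.68 in adenocarcinoma (adjusted p = 0.00116), and Pgd, another, exceeded inflamed mucosa there by 0.41 (adjusted p = 0.00894). Of 12 glycerolipid genes, 5 rose and 3 fell in adenocarcinoma (median 0.14), and 2 rose and 3 fell in inflamed mucosa. Here 66.7% and 41.7% were called, against 35.8% and 26.7% of all genes. Lpcat4, a lysophospholipid acyltransferase, rose by 1.85 in adenocarcinoma (3.60-fold, adjusted p = 5.36e-06) and exceeded inflamed mucosa by 0.94 (adjusted p = 0.00657). Dgat1, which makes triglyceride, fell by 0.66 in adenocarcinoma (adjusted p = 6.4e-05), as did Pnpla2, which breaks it down, by 0.75 (adjusted p = 4.88e-05). Dgat2, the other triglyceride enzyme, rose by 0.49 in adenocarcinoma (adjusted p = 0.0187; 0.38 and 0.0551 without normal mucosa 6). A last list held 6 measured genes of other sterol steps and of isoprenoid branches that do not lead to sterols, Coq2 and Ggps1 among the latter. In adenocarcinoma 2 rose (Lbr by 0.52, adjusted p = 0.0121, and Coq2 by 0.41, adjusted p = 0.0233) and Ggps1 fell by 0.47 (adjusted p = 0.031). That is 50% of this mixed list called, against 35.8% of all genes. Coq2 was lost without adenocarcinoma 2 or 4 or normal mucosa 1 or 2 (adjusted p 0.0507 to 0.0674), and Ggps1 without adenocarcinoma 1, 3 or 6 or any of normal mucosa 1, 2 and 4 (adjusted p 0.0526 to 0.089).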

How the data were processed

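Per the series' design text, the authors scanned with Affymetrix GeneChip Command Console version 2.0 and deposited log2 values, 1 for each transcript cluster, that Affymetrix Expression Console version 1.1 computed by RMA; the submitters' processing notes also name Partek, with no role. RMA gives all arrays a common distribution, which removes a difference in total RNA and shrinks differences between dim genes.

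Of 35556 clusters, 21789 name 1 gene, and 21698 matched a RefSeq table of GRCm38.p6. Where several clusters name a gene, the brightest on average stands for it, which left 19938 genes. Groups came from tissue labels. One limma 3.58.1 fit of the 3 groups (R 4.3.3, lmFit and eBayes, Benjamini-Hochberg adjusted p below 0.05, no block or covariate) gave every difference and was checked on simulated data with 200 changed genes. The 4 and 5 arrays per group limit the precision. All members were described. Of each pathway list, up to 4 called genes with the smallest adjusted p per comparison could be named, and of each cell type list up to 3 with the highest means. Adipocyte genes, Krt5, Krt10 and Dsg3 were named outside this rule, after their values were seen. The members and lists were chosen with earlier results of these data known. Symbols measured were 215 of 233.

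Same-numbered tumour and inflamed samples share sex and age in the labels. What each deviated by from its group mean correlated within the pairs at 0.319, 0.198, 0.199 and 0.387. Tumour and inflamed samples of different numbers correlated at -0.318 to 0.185, and adenocarcinoma 1 with normal mucosa 2 at 0.283. Same-numbered tumour and inflamed samples were taken as paired, though the margin was small and the labels do not say that a pair came from 1 mouse. Sex and age do not tell numbers 2 and 3 apart. Normal samples correlated with same-numbered others at -0.126 to 0.0413 and were not taken as paired. Each difference was recomputed in 23 other ways (a replicate block, the number shared by tumour and inflamed samples as a random block, sex as a covariate, only the groups compared, median centring, cyclic loess, a filter on dim genes, the mean of a gene's clusters, an intensity trend and robust prior, array weights, and each of 13 arrays left out), and in 2 ways chosen after seeing the data.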

Additional observations from a re-analysis of the deposited data

Results flagged for a closer look

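In 3 of 93 sets of 4 or 5 samples, 1 sample lay far from the rest of its group, where chance sets apart about 1 in 20. Hmgcs1 in inflamed mucosa 2 was 10.75, below the other 3 inflamed samples at 11.04 to 11.08. Cyp51 in adenocarcinoma 3 was 9.49, below the other 4 tumours at 9.68 to 9.71. Me1 in normal mucosa 1 was 7.40, above the other 3 normal samples at 5.50 to 5.82, and this is the sample with the high squamous keratins.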

How the results depend on the processing

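No called value changed direction under the 23 planned or the 2 added alternatives. Of the calls against normal mucosa, 4 of 8 in inflamed mucosa (Sc5d, Me1, Fasn and Scd1) and 10 of 18 in adenocarcinoma (Pmvk, Mvd, Fdps, Cyp51, Sc5d, Srebf1, Me1, Acaca, Fasn and Scd1) held under all 23, and 0 of 2 between adenocarcinoma and inflamed mucosa (limma, 5 genes higher and 1 lower at an unadjusted p below 0.05). In that last comparison 1650 of all 19938 genes were higher and 2232 lower at that level. Where a normal sample is left out, differences between adenocarcinoma and inflamed mucosa stay the same. Only the spread shared by the groups in the fit and the adjustment over genes change. The cause of each other change was not tested.

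Leaving out 1 sample gave 5 to 13 genes higher and 1 to 3 lower in inflamed against normal mucosa, 10 to 15 higher and 1 to 3 lower in adenocarcinoma against normal mucosa, and 0 to 4 higher and 0 to 1 lower in adenocarcinoma against inflamed mucosa. Over all genes, in the same order, these fits gave 2133 to 2762 higher and 1391 to 3024 lower, 2801 to 3286 higher and 2543 to 4374 lower, and 302 to 662 higher and 473 to 990 lower. With the replicate block, 1 gene was lower in inflamed and 1 in adenocarcinoma against normal mucosa, where 2166 and 3341 of all genes were. In the latter comparison Ebp (-0.28, adjusted p = 0.0589), Elovl6 (-0.43, 0.0703), Scap (0.22, 0.0799) and Scd2 (0.47, 0.0611) no longer passed, and in inflamed mucosa Acaca (0.55, 0.0622) and Ebp (-0.34, 0.0516) did not. That block also joins normal samples that were not taken as pairs. With sex as a covariate 10 genes were higher in inflamed than in normal mucosa, where 2539 of all genes were, against 2730 without it. For adenocarcinoma against inflamed mucosa, the count higher was 5 with the number shared by tumour and inflamed samples as a random block or with array weights, 3 from these groups alone, 2 with arrays centred on their medians, and 0 with sex as a covariate, cyclic loess, or an intensity trend and robust prior (5 at an unadjusted p below 0.05 in each). Over all genes the counts higher were 938, 981, 679, 555, 511, 545 and 537 in the same order, against 581. The split of higher to lower calls was 2 to 1 with median centring and 0 to 1 with cyclic loess, against 1 to 1.

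Without normal mucosa 1 and adenocarcinomas 2 and 3, chosen after seeing the data for their high Krt5, 0 genes were lower in adenocarcinoma than in normal mucosa (2 at an unadjusted p below 0.05) and 0 higher than in inflamed mucosa (5). Of all genes, 2121 were lower than in normal mucosa and 478 higher than in inflamed mucosa in that fit. Without normal mucosa 1 and 2, also chosen after seeing the data, 3 of the 30 genes were higher and 1 lower in inflamed mucosa, 0 lower in adenocarcinoma (2), and 4 higher in adenocarcinoma than in inflamed mucosa. The counts over all genes were 1816, 952, 1986 and 711 in the same order.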
